A study of Bos taurus with 6 samples.

Results

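The genes described here encode subunits of phosphoinositide 3-kinase (PI3K), an insulin receptor substrate and the FOXO transcription factors. They were measured in cultured bovine granulosa cells (GC), the somatic cells that surround the oocyte and produce estradiol, plated at 2 densities. Members were the rows of the deposited array table whose gene symbol was PIK3R1, PIK3R3, PIK3CA, PIK3CB, PIK3CD, IRS2, FOXO1, FOXO3 or FOXO4. Of these 9 symbols, 8 matched, each with 1 transcript cluster (the set of probes that the array combines into 1 value per gene), among 26773 transcript clusters in all. No row was matched to IRS2, and it was not analysed here. The accession of 6 of the 8 rows is listed for the same symbol in RefSeq. The rows of PIK3R3 and FOXO1 carry other accessions, and their identity rests on the symbol in the table.

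The study asked how plating density alters gene expression in primary GC. In the normal density group 3 cultures and in the high density group 3 cultures, each on 1 Bovine Gene 1.0 ST Array, were harvested after 9 days. Plating density is the only difference between the groups that the labels give. All 6 cultures were kept without serum in α-MEM with FSH, IGF-1 and androstenedione, and per the study's methods with insulin as well, so both groups received ligands of the pathway throughout. The cells were pools from many abattoir cows of undefined cycle stage, taken from small to medium follicles, and the spread between cultures is therefore one between pooled preparations and not between animals.

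In the PI3K pathway, receptors for insulin and IGF-1 recruit insulin receptor substrates, and these bind class IA PI3K, a dimer of a regulatory and a catalytic subunit. The lipid product of the enzyme brings the kinase AKT to the membrane, lipid phosphatases remove it, and AKT phosphorylates FOXO factors, which then leave the nucleus. In GC the pathway is known to act together with FSH, and FOXO1 is known as an abundant factor of GC in growing follicles.

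Values are log2 signals made by the authors with the RMA procedure. The log2 fold change of a gene is its mean signal at high density minus that at normal density. It is given with its standard error (SE) from limma, whose p-values were adjusted over all transcript clusters by the Benjamini-Hochberg method. A gene is termed called up or down when its fold change (FC) is above 1.5 in size and its p-value and false discovery rate (FDR) are below 0.05, the thresholds of the methods. The array medians lay between 4.34 and 4.43. The 95th percentile of 82 reporter control rows, 4.62, was taken as the background level, and in 51.2% of all transcript clusters the higher group mean did not exceed it. High density replicate 2 stood apart from the other cultures of its group, with Euclidean distances between high density cultures of 35.3 to 47.5 against 31.2 to 32.4 between normal density cultures. Of 11 GC marker genes none had both means at or below the background level, but 6 were called down and 1 was called up (HSD17B1), with a median log2 fold change of −0.65. Their summed linear signal was 4082 to 4547 at normal and 2639 to 2873 at high density. NR5A2 of this list was not called but rose by 0.41 on the log2 scale (adjusted p by limma = 0.00482), without overlap of the groups. FOXL2, a defining factor of GC and one of the 6, averaged 7.94 at normal and 7.29 at high density, while CYP17A1, a marker of theca cells, lay at 2.93 and 2.92. The theca list held 6 genes, of which 1 had both means at or below the background level and 2 were called up (COL1A1 and INSL3). Its summed linear signal was 1047 to 1121 at normal and 1422 to 1584 at high density. STAR of this list fell from a mean of 9.03 to 8.54, without overlap of the groups. Its log2 fold change of −0.49 (adjusted p by limma = 0.0105) was not called. Of 8 endothelial markers 1 was called (CLDN5, up) and 6 had both means at or below the background level. Their summed linear signal was 106 to 109.3 at normal and 259.3 to 297.7 at high density. Most of that rise was the rise of CLDN5, which averaged 4.71 and 7.53 on the log2 scale. VWF, the remaining marker, averaged 5.39 and 5.70 and was not called. The part of these shifts in the results was not tested.

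The regulatory subunits showed the largest changes among the 8 genes. PIK3R3 and PIK3R1 fell at high density, and FOXO4 fell by less. PIK3CD, a catalytic subunit, was the only one of the 8 genes that was called up. PIK3CA, PIK3CB, FOXO1 and FOXO3 were not called. The called genes thus numbered 4 of 8, and 7.49% of all transcript clusters were called in either direction. Those called down numbered 3 of 8, and the share over all transcript clusters was 3.51%, while 1 of 8 was called up, for which the share over all was 3.97%. At any FC, 6 of 8 genes passed the FDR threshold, as did 19.1% of all transcript clusters. Signals of the 2 densities did not overlap for 6 of 8 genes, and this was so for 37.3% of all transcript clusters, with 5 of 8 lower at high density (19.5% of all) and 1 of 8 higher (17.8% of all). The median log2 fold change of the 8 genes was −0.43, beside 0.02 over all transcript clusters. Both means were at or below the background level for 0 of the 8 genes and for 51.2% of all transcript clusters, so these shares compare unlike sets.

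**Figure D1:**
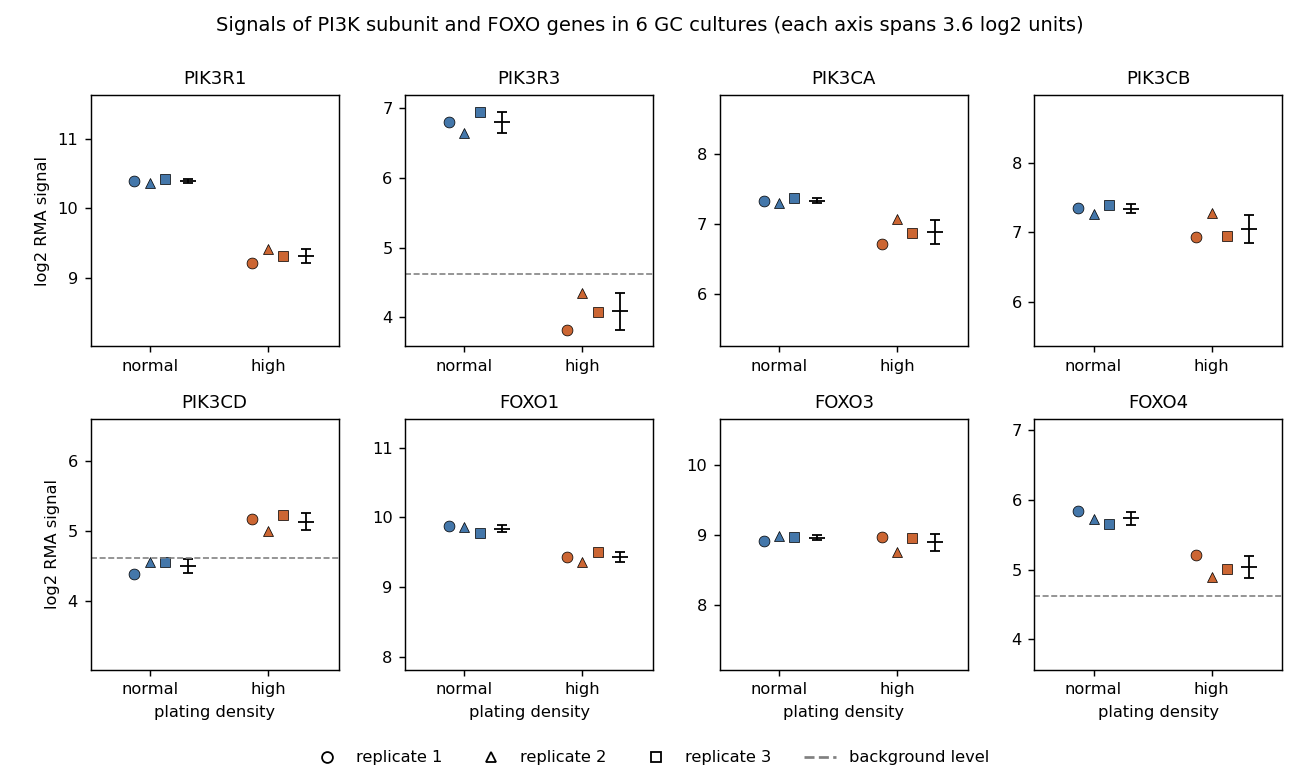
Log2 RMA signal (vertical axis, 3.6 log2 units in every panel) of 8 PI3K and FOXO genes by plating density. Symbols are cultures, the black mark is the mean with its SD (n = 3), and the dashed line is the background level of 4.62, which the 3 high density signals of PIK3R3 lay below.

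PIK3R3 encodes the gamma regulatory subunit, a short form that lacks the amino-terminal domains of the alpha subunit. Its log2 signals (transcript cluster 12836111) were 6.80, 6.65 and 6.95 in normal density replicates 1 to 3, and 3.82, 4.35 and 4.08 in high density replicates 1 to 3. Every high density culture was lower than every normal density culture, with a gap of 2.30 log2 units between the nearest of them. The mean signals were 6.80 ± 0.15 and 4.09 ± 0.27 (SD, n = 3), and the log2 fold change was −2.71 (SE 0.14, 95% confidence interval −3.05 to −2.38, adjusted p by limma = 4.14e-05). This is a 6.55-fold fall, 5th in size among all called falls. The high density mean lay 0.53 log2 units below the background level and the normal density mean 2.18 above it, so that the size of the fall is limited from below. As whole cultures were measured, less RNA per cell and fewer cells that express the gene cannot be told apart.

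PIK3R1 encodes the alpha regulatory subunit, which stabilizes the catalytic subunit and holds it inactive until it is bound to a phosphorylated receptor or substrate. Its signals (12786990) were 10.40, 10.36 and 10.42 at normal density and 9.23, 9.42 and 9.32 at high density. The normal density cultures were nearly alike, and all high density cultures lay below them by at least 0.95. The means of 10.39 ± 0.03 and 9.32 ± 0.09 (SD, n = 3) gave a log2 fold change of −1.07 (SE 0.07, adjusted p by limma = 1.32e-04), a 2.10-fold fall. Only 2.12% of all transcript clusters changed by more in either direction. In contrast to PIK3R3, both means were far above the background level, by 5.77 and 4.70.

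PIK3R3 and PIK3R1 were also compared within arrays. The log2 signal of PIK3R3 minus that of PIK3R1 was −3.60 ± 0.12 on the normal density arrays and −5.23 ± 0.17 on the high density arrays (SD, n = 3), without overlap, a change of −1.64. The p from an exact, two-sided permutation of the densities was 0.1, which is the lowest that 3 cultures against 3 allow. Since the signal of PIK3R3 ended below the background level, this difference is limited as well. For PIK3R2, the beta regulatory subunit, the log2 fold change of −0.47 stayed below the FC threshold (SE 0.09, adjusted p by limma = 0.0110). Its signals were 6.83, 6.92 and 6.86 at normal density and 6.51, 6.23 and 6.46 at high density, and the groups did not overlap.

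PIK3CD encodes the delta catalytic subunit, best known from leukocytes. Its signals (12738750) were 4.39, 4.55 and 4.56 at normal density, all below the background level, and 5.17, 4.997 and 5.23 at high density, all above it. The groups were 0.44 apart. The means were 4.50 ± 0.10 and 5.13 ± 0.12 (SD, n = 3), and the log2 fold change was 0.63 (SE 0.09, adjusted p by limma = 0.00299), a 1.55-fold rise. This rise was close to the FC threshold. It was 0.58 with normal density replicate 1 left out and also with high density replicate 3 left out, and was then not called. Of 11 leukocyte markers, PTPRC and CD14 among them, 0 were called and all 11 had both means at or below the background level. Their summed linear signal was 120.4 to 126.4 in the normal and 122.1 to 137.8 in the high density cultures. Below that level, PTPRC and CD14 differed in direction, each without overlap of the groups. Their log2 fold changes were −0.22 and 0.41 (adjusted p by limma = 0.144 and 0.0553). A part of leukocytes in the rise of PIK3CD was not tested.

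PIK3CA and PIK3CB encode the alpha and beta catalytic subunits, which most tissues express. For PIK3CA (12683464) the signals were 7.33, 7.30 and 7.37 at normal density and 6.72, 7.07 and 6.86 at high density. The groups did not overlap, but high density replicate 2 came within 0.23 of the normal density cultures. Its log2 fold change of −0.45 (SE 0.10, 95% confidence interval −0.68 to −0.22, adjusted p by limma = 0.0193) passed the FDR threshold and not that of the FC. The adjusted p was between 0.00439 and 0.0754 with each culture left out.

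For PIK3CB (12680597) the signals were 7.36, 7.27 and 7.40 at normal density and 6.93, 7.28 and 6.94 at high density. High density replicate 2 lay within the range of the normal density cultures, and the other high density cultures lay below it. The log2 fold change was −0.29 (SE 0.11, 95% confidence interval −0.54 to −0.04, adjusted p by limma = 0.111), and neither threshold was passed. Without high density replicate 2 it was −0.40 (adjusted p by limma = 0.00858), and the groups did not overlap. With that culture left out, this was so for 57.3% of all transcript clusters.

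The catalytic subunits thus differed in direction. Within arrays, the log2 signal of PIK3CD relative to that of PIK3CA differed by 1.08 between the densities, higher at high density in every culture (p = 0.1 by exact permutation, two-sided). Of 3 such gene pairs compared, all had an adjusted p of 0.1 by exact permutation, and none could pass 0.05 in this design.

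**Figure D2:**
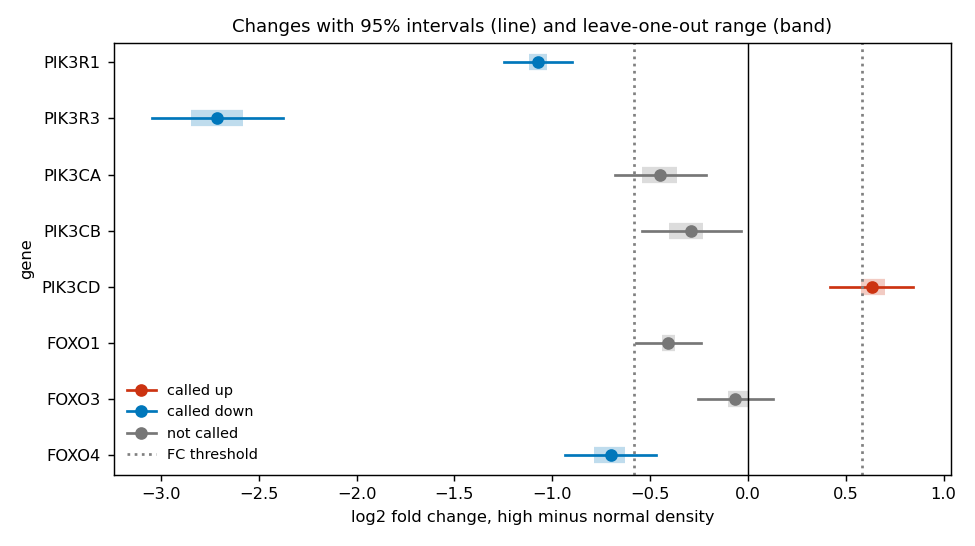
Log2 fold change, high minus normal density (horizontal axis), of the 8 genes, with the 95% confidence interval as a line, the range with each culture left out as a band, and the FC threshold dotted. The interval of PIK3R3, from −3.05 to −2.38, lies apart from that of every other gene, and that of FOXO3 includes 0.

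Among the FOXO factors, FOXO4 was called. FOXO4 (12910342) had signals of 5.84, 5.73 and 5.65 at normal density and 5.20, 4.89 and 5.01 at high density. The groups lay 0.44 apart, and all cultures were above the background level. The means of 5.74 ± 0.09 and 5.04 ± 0.16 (SD, n = 3) gave a log2 fold change of −0.70 (SE 0.10, 95% confidence interval −0.93 to −0.47, adjusted p by limma = 0.00287), a 1.63-fold fall. Leaving out any single culture did not end the call, with log2 fold changes between −0.78 and −0.63.

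FOXO1 (12709252) had signals of 9.87, 9.86 and 9.78 at normal density and 9.44, 9.36 and 9.50 at high density. All high density cultures were lower, by at least 0.28. Its log2 fold change was −0.41 (SE 0.07, 95% confidence interval −0.57 to −0.24, adjusted p by limma = 0.00756), below the FC threshold, as the whole interval was. With each culture left out it stayed between −0.44 and −0.37, and the adjusted p between 0.0103 and 0.0392.

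FOXO3, known for its role in holding primordial follicles dormant in the oocyte, showed no difference that exceeded the spread of the cultures. Its signals (12900979) were 8.92, 8.98 and 8.97 at normal density and 8.97, 8.75 and 8.95 at high density. Only high density replicate 2 lay outside the range of the normal density cultures. The log2 fold change was −0.06 (SE 0.08, 95% confidence interval −0.26 to 0.13, adjusted p by limma = 0.639), an interval that does not reach the FC threshold on either side. Without high density replicate 2 it was 0.01, and no direction is given. The log2 signal of FOXO4 minus that of FOXO1 was −4.10 ± 0.05 and −4.39 ± 0.14 (SD, n = 3), a change of −0.29 (p = 0.1 by exact permutation, two-sided).

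Among the 8 genes, high density replicate 2 stood differently for the PI3K subunits and for the FOXO genes. For all 5 PI3K subunits among them, high density replicate 2 was the culture of its group nearest to the normal density mean, and for 0 of the 3 FOXO genes was it so. Over all transcript clusters the share was 45.4%, and over the called ones 52.6%. PI3K subunits outside the 8 genes went both ways. High density replicate 2 was the farthest from the normal density mean for PIK3R2 (6.51, 6.23 and 6.46 in high density replicates 1 to 3) and PIK3C2B (5.57, 5.45 and 5.55), and the nearest for some others. In this culture PIK3CB showed 21.0% of the mean difference between the densities, PIK3CA 58.2%, PIK3CD 78.2%, PIK3R3 90.2% and PIK3R1 91.1%. For FOXO1 it showed 118% and for FOXO4 120%, that is, lower signals than the group mean. The SD was larger at high than at normal density for all 8 genes, which was so for 68.4% of all transcript clusters. Without this culture 7 of 8 genes passed the FDR threshold, FOXO3 being the exception, and 29.2% of all transcript clusters did. No change of call resulted among the 8 genes, and the log2 fold changes were then −2.84 for PIK3R3, −1.12 for PIK3R1, 0.70 for PIK3CD and −0.63 for FOXO4.

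**Figure D3:**
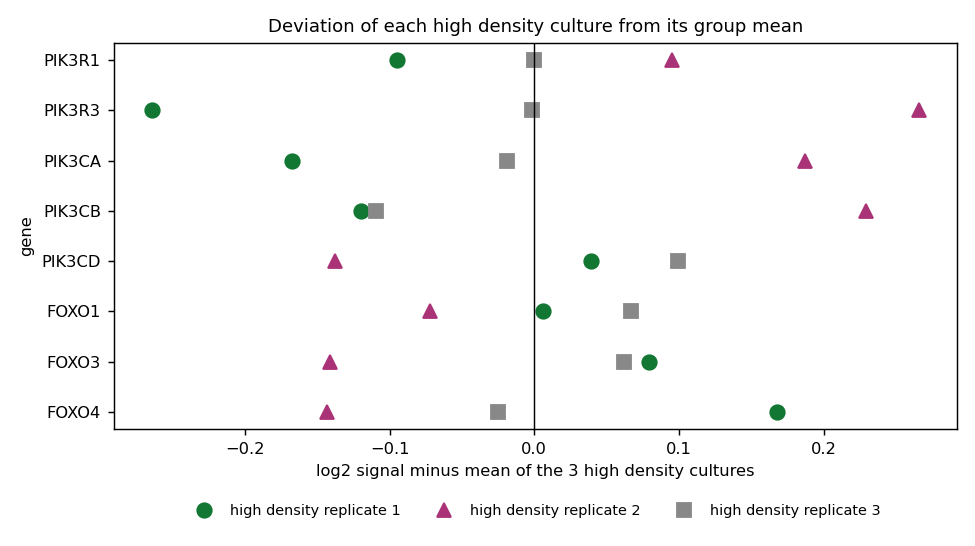
Log2 signal of each high density culture minus the mean of the 3 high density cultures (horizontal axis) for the 8 genes. Replicate 2 (triangles) is the highest for PIK3R1, PIK3R3, PIK3CA and PIK3CB and the lowest for PIK3CD and the FOXO genes.

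The genes with the most similar profiles were sought for each called gene, as the smallest Euclidean distance over the 6 arrays between signals centred on their own mean. With 2 groups such a distance depends mostly on the size of the change, and all correlations with the nearest genes were at least 0.989 (Pearson's r over 6 arrays, given as a description). Nearest to PIK3R3 were ARRDC4, an alpha-arrestin, at a distance of 0.64, DHRS9, a short-chain dehydrogenase, at 0.65, and SUSD4, a regulator of complement, at 0.67. Their log2 fold changes were −3.03, −2.27 and −2.28. For PIK3R1 these were CAP2, an actin regulator, with a distance of 0.08 and a log2 fold change of −1.06, FAM171B with 0.11 and −1.08, and ACSL6, an acyl-CoA synthetase, with 0.11 and −1.03. Closest to PIK3CD were C5H12orf68, the adenylate kinase AK1 and the acetylcholine receptor subunit CHRNE, at distances of 0.08, 0.10 and 0.10. Like that of PIK3CD, the normal density means of C5H12orf68 (4.52) and CHRNE (4.30) lay below the background level. Closest to FOXO4 were the anion exchanger SLC4A3 at 0.07, the interferon-inducible IFI6 at 0.09 and CSRNP3 at 0.14.

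The other genes of the pathway were taken from 5 lists with 85 genes found of 87 listed. Of these, 6 were called up, 4 were called down and 75 were not called. They are represented by 88 transcript clusters, of which 11.4% were called, beside 7.49% of all transcript clusters, and their median log2 fold change was −0.08. At any FC, 9 passed the FDR threshold upwards and 17 downwards, counts to be read against 8.64% and 10.4% of all transcript clusters. By list, the share called was 9.09% for other PI3K subunits, 17.6% for receptors and adaptors and 15.4% for phosphatases. It was 10.3% for AKT, mTOR and related genes and 5.56% for FOXO regulators, each to be read against the same 7.49%. Both means were at or below the background level for 11 of the 88, beside 51.2% of all transcript clusters, so these shares compare unlike sets.

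**Figure D4:**
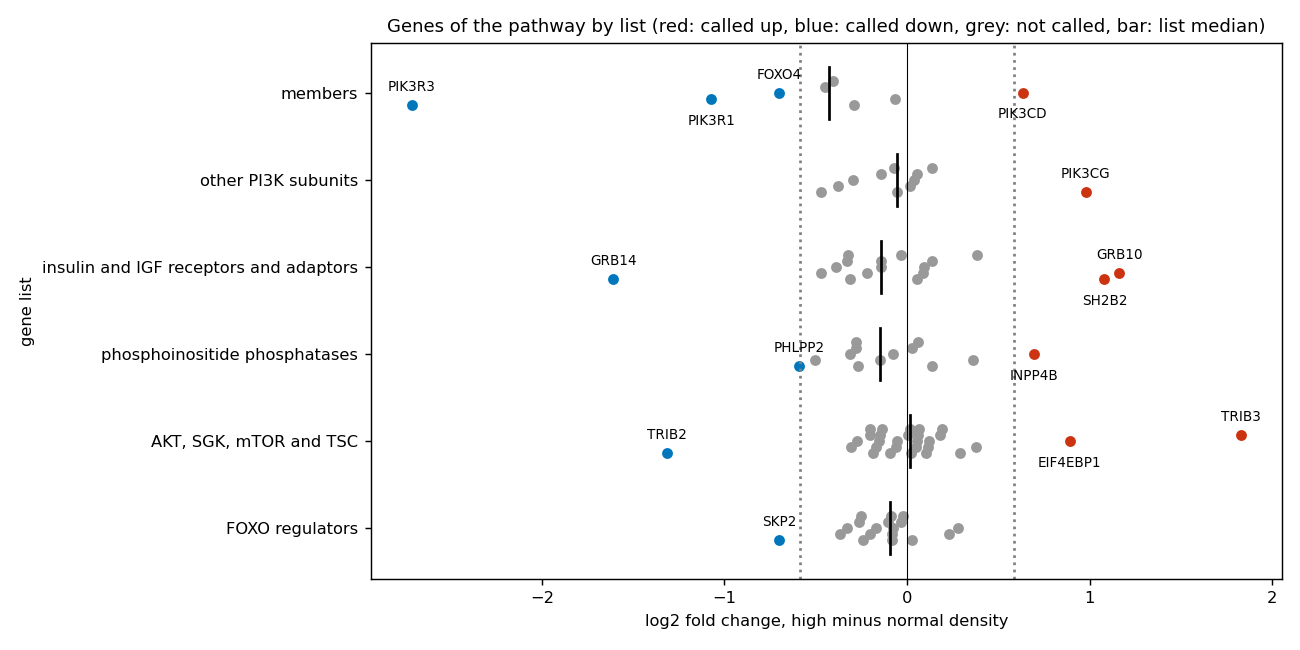
Log2 fold change, high minus normal density (horizontal axis), of each transcript cluster of the pathway in 6 gene lists (vertical axis), with called genes named, list medians as bars and the FC threshold dotted. Most genes lie within the threshold, and outside the 8 members the widest changes are those of TRIB3 at 1.83 and GRB14 at −1.61.

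Of the other 11 PI3K subunits and binding proteins 1 was called. PIK3CG, the catalytic subunit of class IB that responds to G protein coupled receptors, had signals of 4.18, 4.05 and 4.29 at normal density and 4.91, 5.23 and 5.32 at high density. This gave a log2 fold change of 0.98 (SE 0.12, adjusted p by limma = 0.00153). Like PIK3CD it rose from below to above the background level, and the leukocyte values given for PIK3CD apply to it as well. Its regulatory partners PIK3R5 and PIK3R6 had means below the background level at both densities. PIK3C2B, a class II enzyme, had a log2 fold change of −0.38 (adjusted p by limma = 0.0134), below the FC threshold.

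Among 17 receptors and adaptors 2 were called up and 1 was called down. GRB14, an adaptor that inhibits the insulin receptor kinase, fell from 8.74, 8.74 and 8.71 to 7.06, 7.38 and 6.92, a log2 fold change of −1.61 (SE 0.12, adjusted p by limma = 1.69e-04). GRB10, its close relative and likewise an inhibitor of the receptor, changed in the opposite direction. Its signals were 4.75, 4.69 and 4.58 at normal density and 5.82, 5.87 and 5.81 at high density, with a log2 fold change of 1.16 (SE 0.07, adjusted p by limma = 9.55e-05). SH2B2, an adaptor that binds the activated insulin receptor, rose by 1.08 on the log2 scale (SE 0.11, adjusted p by limma = 5.72e-04).

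The receptors themselves were not called. INSR had a log2 fold change of −0.47 (SE 0.08, adjusted p by limma = 0.00535) and IGF1R of −0.33 (SE 0.09, adjusted p by limma = 0.0419), both past the FDR threshold and below that of the FC. The same was true of the docking protein GAB1 with −0.39 (adjusted p by limma = 0.00614). For IGF1R the FDR threshold was passed narrowly. With each culture left out, its adjusted p by limma lay between 0.0364 and 0.143, and that of INSR between 0.00634 and 0.029. With the replicate block the adjusted p by limma of IGF1R was 0.0724. IRS1, an insulin receptor substrate, had signals of 5.84, 5.62 and 5.55 at normal density and 5.73, 5.92 and 5.76 at high density. These overlapped, and the log2 fold change of 0.14 (SE 0.10, adjusted p by limma = 0.396) passed no threshold.

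Of 13 phosphatases of inositol lipids and of AKT, 1 was called up and 1 was called down. INPP4B, which acts on a product of PI3K, rose by 0.70 on the log2 scale (SE 0.10, adjusted p by limma = 0.00315). PHLPP2, which dephosphorylates AKT, had a log2 fold change of −0.59 (SE 0.07, adjusted p by limma = 0.00123), just past the FC threshold. It was called in 10 of 15 alternatives, and was not called without normal density replicate 2 (−0.57) or high density replicate 1 (−0.56), with array weights (−0.58), after a second quantile normalization (−0.56) or with treat, which tests the change against the FC threshold itself.

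AKT1 and AKT2, kinases downstream of PI3K, were not called. AKT1 had a log2 fold change of 0.12 (SE 0.09, adjusted p by limma = 0.420) and AKT2 of 0.18 (SE 0.08, adjusted p by limma = 0.144). Among the 26 genes of this list that were found, 2 were called up and 1 was called down, and none of the 3 encodes an active kinase of the cascade. TRIB3, a pseudokinase known to bind AKT, rose from 3.56, 3.40 and 3.38, below the background level, to 5.39, 4.90 and 5.54, a log2 fold change of 1.83 (SE 0.16, adjusted p by limma = 3.42e-04). TRIB2, a pseudokinase of the same family, fell from 9.07, 9.31 and 9.05 to 7.89, 7.90 and 7.69, with a log2 fold change of −1.31 (SE 0.10, adjusted p by limma = 1.96e-04). EIF4EBP1, a repressor of translation that mTOR phosphorylates, rose by 0.89 (SE 0.10, adjusted p by limma = 0.00128). Of 18 FOXO regulators found, only SKP2 was called. This subunit of a ubiquitin ligase fell by 0.70 on the log2 scale (SE 0.11, adjusted p by limma = 0.00391).

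Genes known from other systems as targets of FOXO factors were listed as well, and 43 of 48 symbols were found. In this list 5 genes were called up, 3 were called down and 35 were not called. The share called was 18.6%, beside 7.49% of all transcript clusters, and the median log2 fold change was 0.01. Both means were at or below the background level for 12 of the 43, beside 51.2% of all transcript clusters, so the 2 shares compare unlike sets. The list holds genes that FOXO factors activate and some, such as CCND1 and CCND2, that they repress, and many answer to other factors too.

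TXNIP, an inhibitor of thioredoxin and of glucose uptake, changed most. Its signals were 9.96, 10.07 and 10.01 at normal density and 3.66, 4.40 and 3.73 at high density, and all of the latter lay under the background level. This gave a log2 fold change of −6.08 (SE 0.19, adjusted p by limma = 9.85e-06), and as for PIK3R3 its size is limited from below. The other falls were those of SESN3, a sestrin that FOXO factors activate, with −1.30 (SE 0.11, adjusted p by limma = 3.31e-04) and CCND1, which encodes cyclin D1, with −0.86 (SE 0.13, adjusted p by limma = 0.00448). The mean of CCND1 at high density, 4.50, was likewise below the background level. SESN2, the sestrin induced by amino acid stress, rose by 0.91 (SE 0.11, adjusted p by limma = 0.00159), whereas SESN1 was not called, with −0.48 (adjusted p by limma = 0.0154). The other rises were 0.79 for the transcriptional repressor NFIL3, 0.79 for GADD45B and 0.66 for GADD45A, both genes of growth arrest, and 0.74 for the mitophagy receptor BNIP3. CCND2 was not called, with −0.41 (adjusted p by limma = 0.00852).

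**Figure D5:**
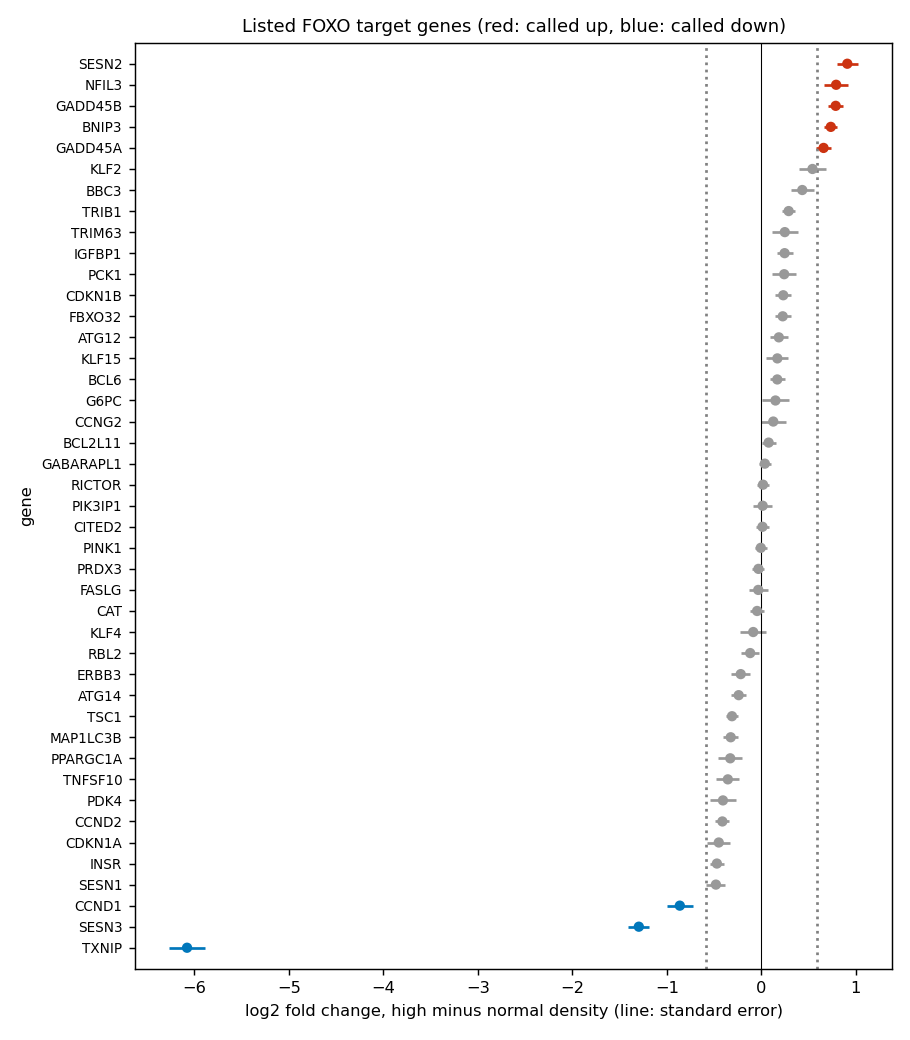
Log2 fold change, high minus normal density (horizontal axis), of 43 listed FOXO target genes, with the standard error as a line and the FC threshold dotted. The 5 genes called up and the 3 called down lie at the ends of an otherwise narrow distribution, and TXNIP lies apart at −6.08.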

How the data were processed

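RNA of 6 GC cultures (3 per density) was hybridized to 1 array each. The deposited log2 signals are RMA values that the authors computed in Expression Console (background reduction, normalization between arrays, gene-level summary), and no further normalization was applied. RMA leaves weak signals compressed near the background level, so fold changes that reach it are understated. The table holds 0 columns of other samples, and 297 of its rows equal another row. The authors' processing notes also name Transcriptome Analysis Console 3.0. The genome build of the array annotation is not given in the sources used here, so no coordinates or sequences are printed.

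High minus normal density was fitted with limma 3.58.1 in R 4.3.3 (lmFit, eBayes, no covariates), with Benjamini-Hochberg adjustment. Gene pairs were compared by exact permutation. The number of arrays limits the precision. The script was tested on simulated data. Alternatives were an equal-variance t-test (the methods name an analysis of variance), eBayes with trend and robust settings, array weights and a replicate block. Further ones were other scalings, filters on low signals, treat, and leaving out each culture. Figures were drawn with matplotlib 3.10.9.

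The genes, the lists (written from general knowledge) and the tests were chosen with earlier results of these data known. Named are all 8 genes, every called gene of the 5 pathway lists, the 5 largest rises and falls among called FOXO targets, the 3 nearest profiles of each called gene, and INSR, IGF1R, IRS1, AKT1, AKT2, PIK3CG and TXNIP. The rule names further genes that are not reported here. PIK3R2, PIK3R5, PIK3R6, PIK3C2B, GAB1, CCND2 and SESN1 and the marker genes named were chosen after their values were seen.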

Additional observations from a re-analysis of the deposited data

How the results depend on the processing

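PIK3R3 and PIK3R1 were called down in all 15 alternatives, and FOXO4 in 14, the exception being treat, which tests whether a change exceeds the FC threshold itself. PIK3CD was called up in 12. Treat called 529 transcript clusters in place of 2005, 0 of the 8 genes up and 2 down, 2 pathway list genes up and 2 down, and 0 FOXO targets up and 2 down, by its stricter construction. With each culture left out, the 8 genes called up were between 0 and 1, with 0 without normal density replicate 1 or high density replicate 3, and those called down were 3 throughout. Over the same fits 1848 to 2434 transcript clusters were called. The change of the PIK3R3 to PIK3R1 difference lay between −1.72 and −1.55, that of PIK3CD to PIK3CA between 0.98 and 1.24 and that of FOXO4 to FOXO1 between −0.38 and −0.25. Signs turned for genes near 0 only, such as PIK3R5 in a second quantile normalization (−0.0109). With each culture left out FOXO3 lay between −0.104 and 0.0058 and PIK3R5 between −0.0356 and 0.118. The causes were not tested. The labels do not say whether replicate numbers pair the cultures. Same-numbered deviations correlated by 0.05, −0.05 and −0.04, and those of unlike numbers by −0.07 to 0.09, which cannot settle it. With the replicate block 2020 transcript clusters were called and 3 of the 8 genes down and 1 up. Signals near the background level limit changes such as those of PIK3R3, PIK3CD, PIK3CG, TRIB3, TXNIP, CCND1, GRB10, C5H12orf68 and CHRNE. The normal density mean of SESN2 was 0.29 above that level, and the high density mean of FOXO4 was 0.42 above it.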
